A study of Mus musculus with 8 samples.

Results

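The 9 genes described here mark and maintain the neural progenitor state: *Sox1*, *Sox2*, *Pax6*, *Nes*, *Fabp7*, *Hes1*, *Hes5*, *Olig2* and *Neurog2*. They were taken as a list of gene names, drawn up with earlier results of these data known, and the choice of CpGs used position only. Every CpG listed in the files from 5 kb upstream of the first annotated start to the end of each gene was counted as theirs. This gave 564 of the 757812 CpGs present in all 8 files (0.0744%). NPCs (neural precursor cells) were differentiated from A2lox.cre mouse ES cells that carry a doxycycline-inducible shRNA, either a non-targeting control (shScr) or one against *Tet3* (shTet3), and all cultures received doxycycline at 2 µg/ml for 5 days. Each shRNA had 2 replicates, and the labels do not say whether these came from separate clones or differentiations, so that every error given below measures the spread between 2 DNA samples. The DNA of each replicate was split into 2 libraries. Bisulphite treatment (BS) leaves 5-methylcytosine (5mC) and 5-hydroxymethylcytosine (5hmC) to be read as C, whereas prior oxidation (oxBS) leaves only 5mC. Level means the percent of calls at a CpG read as C, so that an oxBS level measures 5mC and a BS level measures 5mC plus 5hmC. The cells were grown on feeders before differentiation, and neither the cell type nor the knockdown of *Tet3* can be checked in these files, which hold no transcript levels. The median coverage of the 564 CpGs was between 46 and 78 calls per library, with 5 to 304 calls at single CpGs.

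In neural progenitors, Sox1 and Sox2 are transcription factors of the SoxB1 group that keep cells in the undifferentiated state. Notch signalling acts through the repressors Hes1 and Hes5, which hold down proneural factors such as Neurog2. Genes of this kind usually have CpG-dense start regions free of 5mC, and TET enzymes oxidise 5mC to 5hmC and further products as a first step of its removal.

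Promoter means the CpGs from 1 kb before to 0.5 kb after any annotated start of a protein-coding transcript, body the other CpGs up to the gene's end, and upstream the remaining CpGs before the first start. *Pax6*, the homeobox factor of radial glia (chromosome 2, 105509053 to 105543317 in mm9), held 80 CpGs. Of these, 27 also lay within *Pax6os1* on the other strand. *Sox2* (chromosome 3, 34548927 to 34551383) held 65, all of them also within the overlapping transcript unit *Sox2ot*. *Nes*, which encodes the intermediate filament nestin (chromosome 3, 87775015 to 87784373), held 67, and *Neurog2* (chromosome 3, 127336054 to 127338549) held 65. *Hes1* (chromosome 16, 30065426 to 30067882) held 81 and *Hes5* (chromosome 4, 154335032 to 154336480) held 70. Of the *Hes5* CpGs, 46 also lay within *RP24-89N4.5* on the other strand. *Olig2*, the bHLH factor of motor neuron and oligodendrocyte progenitors (chromosome 16, 91225795 to 91228922), held 74. *Fabp7*, the fatty acid binding protein of radial glia (chromosome 10, 57504687 to 57508256), held 4. *Sox1* is not named in the annotation, which gives only the model *Gm5607* there. Its start was placed by the single exact match of its RefSeq start sequence to mm9 (chromosome 8, 12395519) and its end at the stop codon of the open reading frame of 391 codons (12397536), and this span held 58 CpGs.

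The sequences below carry the results that follow. The first 2 hold the CpGs whose lower 5mC level in shTet3 was called whichever library was left out, and the third is another stretch of *Nes* that was lower in both kinds of library. The fourth is a stretch at which the 2 control replicates differed, and the last is an unmethylated promoter for comparison. Capitals mark the CpGs listed in the files, and ccgg, in either case, is the site cut by MspI.
*Nes* intron 2, chr3:87777622-87777692, plus strand: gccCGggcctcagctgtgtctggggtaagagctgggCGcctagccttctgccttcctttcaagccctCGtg
*Pax6* coding exon, chr2:105536464-105536540, plus strand: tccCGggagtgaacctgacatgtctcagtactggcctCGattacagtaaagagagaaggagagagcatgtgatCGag
*Nes* intron 1, chr3:87776771-87776902, plus strand: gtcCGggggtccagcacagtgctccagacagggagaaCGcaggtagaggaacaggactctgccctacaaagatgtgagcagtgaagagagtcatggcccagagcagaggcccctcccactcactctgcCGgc
*Neurog2* upstream, chr3:127331305-127331499, plus strand: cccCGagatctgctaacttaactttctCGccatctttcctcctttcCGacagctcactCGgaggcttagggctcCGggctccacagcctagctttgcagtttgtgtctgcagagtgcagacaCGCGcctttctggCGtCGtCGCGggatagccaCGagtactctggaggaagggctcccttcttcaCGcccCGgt
*Sox2* promoter, chr3:34548727-34548862, plus strand: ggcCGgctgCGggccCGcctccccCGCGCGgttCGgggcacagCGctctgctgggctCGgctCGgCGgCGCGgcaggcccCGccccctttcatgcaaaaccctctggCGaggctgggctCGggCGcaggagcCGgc

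*Sox2*, *Hes1*, the promoter of *Hes5*, the promoter of *Neurog2* and the coding exon of *Sox1* were almost free of 5mC in both groups. Of the 527 CpGs covered by 10 or more calls in all 4 oxBS libraries, 372 (70.6%) had a mean level under 10% in shScr, against 54.1% of all 662455 CpGs tested. All 63 CpGs of *Sox2* and all 75 of *Hes1* were in this class. The highest mean of a *Sox2* CpG was 3.77% in shScr and 4.55% in shTet3, and that of a *Hes1* CpG was 2.94% and 6.25%. In the stretch of the *Sox2* promoter printed above, 18 CpGs had mean oxBS levels of 0.259% and 0.275% (shScr) and of 0.106% and 0.0805% (shTet3). The *Hes5* promoter (35 CpGs) had 1.57% and 2.40% in shScr against 1.41% and 1.04% in shTet3. The *Neurog2* promoter (33 CpGs) had 0.39% and 1.17% in shScr against 0.62% and 0.56% in shTet3.

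The start regions of these genes were CpG-dense in the mm9 sequence, apart from that of *Fabp7*. In the window from 1 kb before to 0.5 kb after the first start, the ratio of CpGs found to those given by the C and G content ranged from 0.525 at *Pax6* to 0.822 at *Neurog2* for the other 8 genes, and was 0.239 at *Fabp7*. The windows held between 57 CpGs (*Pax6*) and 112 CpGs (*Hes5*) in those 8 genes, and 18 in *Fabp7*. The method reads only CpGs near MspI sites, and 17.7% of the 564 CpGs lay in such a site. The windows of *Hes1* and *Fabp7* held no listed CpG, those of *Sox1* and *Pax6* held 1 each, and the 6 of *Olig2* did not reach a coverage of 10 in the oxBS libraries. In the BS libraries those 6 had means of 29.2% and 13% (shScr) and 22.0% and 20% (shTet3). The oxBS libraries thus gave levels for few or no CpGs at the first start of these 5 genes. The CpG of *Pax6* had 47.8% and 23.8% in shScr. The promoter CpGs of *Pax6* (30 in all) belong to 21 annotated starts, most of them inside the gene.

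*Pax6* stood at the other end, with 38 of its 73 tested CpGs over 40% in shScr and 12 under 10%. Its body (28 CpGs) had oxBS levels of 66.6% and 55.2% in shScr. The 10 CpGs 6439 to 6579 bases into the gene had 1.08% and 2.48%, so that an unmethylated stretch lay within an otherwise methylated gene. *Olig2*, 64 CpGs tested, was intermediate, with 15 CpGs under 10% and 6 over 40% in shScr. In *Nes*, the 61 CpGs of the first exon had 5.81% and 5.21%, whereas the 3 CpGs in intron 1 had 47.0% and 47.8% and the 3 in intron 2 had 60.7% and 65.8%. In *Neurog2* every CpG over 20% in shScr lay in the stretch upstream of the gene, and in *Hes5* all but 1, in the untranslated region, did. The plot of oxBS level along each gene shows these profiles.

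**Figure D1:**
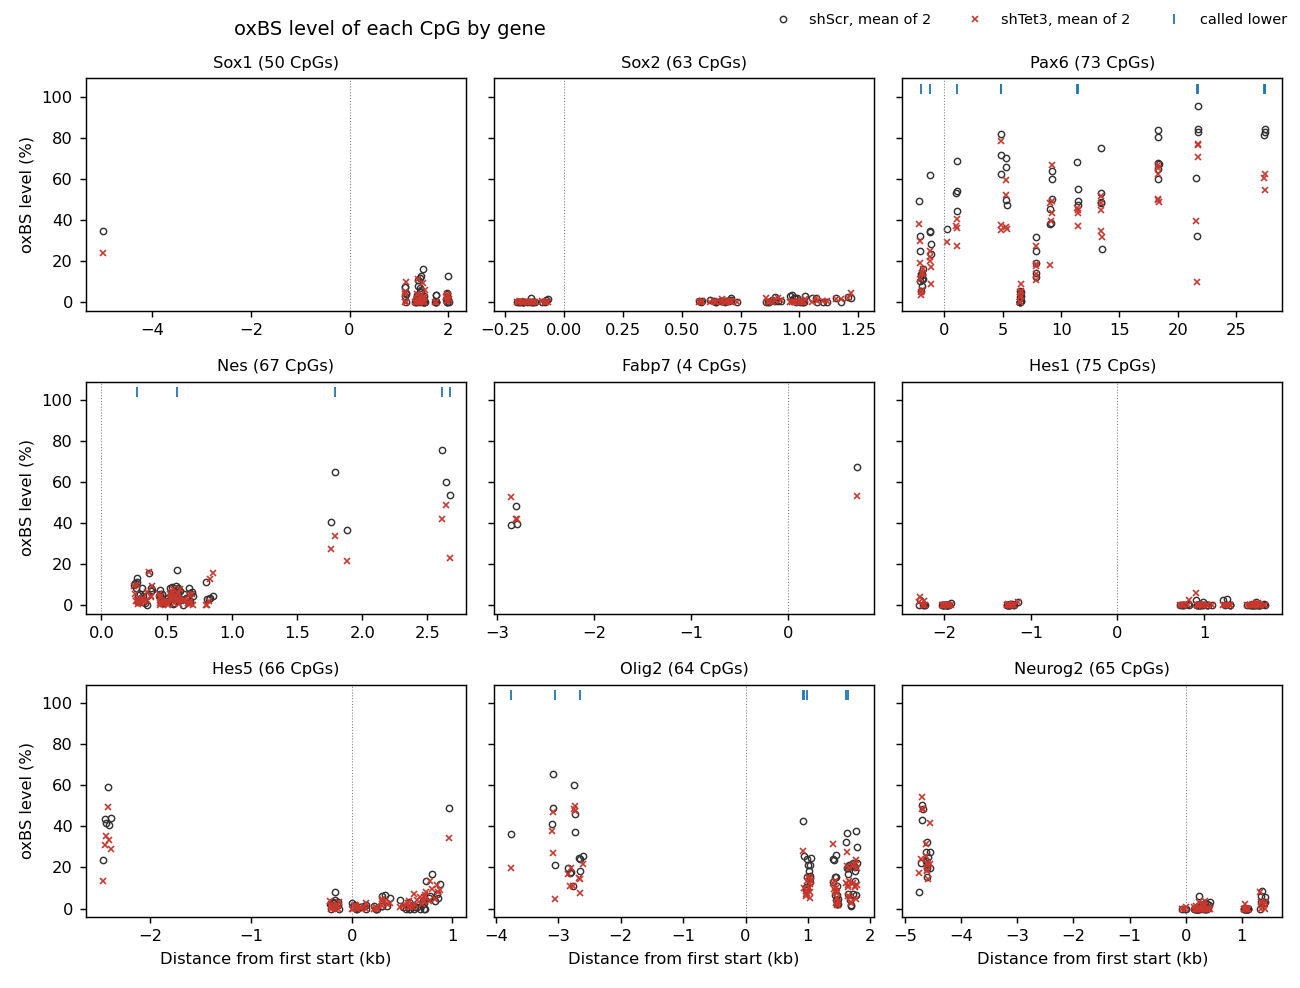
Each panel plots the oxBS level (percent of calls read as C) of the tested CpGs of one gene against distance from its first start in kb, as the mean of 2 shScr replicates (open circles) and of 2 shTet3 replicates (crosses). Blue ticks mark the 25 CpGs called lower in shTet3, which lie in *Pax6* (12), *Olig2* (8) and *Nes* (5), while all CpGs of *Sox2* and *Hes1* lie near 0.

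In shTet3, 5mC was lower at single CpGs of *Pax6*, *Olig2* and *Nes*, and no CpG of the 9 genes was called higher. A CpG was called by a likelihood ratio test of methylated and unmethylated calls, with a Benjamini-Hochberg adjusted p under 0.01 over all CpGs tested and a pooled difference over 10 percentage points. Of the 527 CpGs tested, 25 (4.74%) were lower in shTet3, against 13.9% of all CpGs of the series. None was higher, against 0.0814% of all CpGs. At an unadjusted p under 0.05 the same test gave 52 lower (9.87%, all CpGs 25%) and 3 higher (0.569%, all CpGs 0.399%) past 10 points. Without regard to the test, both shTet3 replicates lay under both controls at 88 of the 527 (16.7%, all CpGs 26.3%) and over both at 32 (6.07%, all CpGs 2.04%). The median pooled difference over the 527 CpGs was 0, and over all CpGs it was −0.58 percentage points.

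The CpGs were also counted by their level in shScr. From 10 to 40%, 11 of 95 (11.6%) were lower, against 8% of all CpGs in that band. Between 40 and 70% there were 8 of 47 (17.0%), against 26.2%. At 70% and above there were 6 of 13 (46.2%), against 41.7%. These bands were chosen after seeing the data, and neighbouring CpGs share fragments, so the counts are a description. By position, 3 of 150 promoter CpGs were lower (2%, all promoters 2%), 17 of 291 body CpGs (5.84%, all bodies 21.9%) and 5 of 86 upstream CpGs (5.81%, all upstream CpGs 12.1%). Of the CpGs over 10% in shScr, 3 of 22 in promoters were lower (13.6%, all promoters 18.1%) and 17 of 79 in bodies (21.5%, all bodies 30.6%). Upstream there were 5 of 54 (9.26%, all upstream CpGs 25.8%).

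In bulk DNA, fewer cells of a type and a lower level per cell cannot be told apart. The test treats calls of both replicates as one pool of reads, and PCR copies are not independent molecules, so the adjusted p covers counting error only. With an F test that takes the spread between replicates at each CpG into account, no CpG of the 9 genes and none of the series was called in either direction. With 2 replicates per group it called nothing anywhere, so its result cannot tell a steady difference from none. At an unadjusted p under 0.05 past 10 points that F test gave 5 lower (0.949%, all CpGs 1.95%) and 0 higher among the 527 (all CpGs 0.00196%).

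The lower 5mC level was steadiest in intron 2 of *Nes* and in a coding exon of *Pax6*. Of the 25 CpGs, 4 were called lower in each of the 4 tests that left out one library, 2 in each of these stretches. They were singled out after their values were seen. At *Nes* chromosome 3 position 87777625, the first capital CpG of the intron 2 sequence and 2610 bases after the start, the oxBS levels were 73.8% and 78.0% in shScr against 38.6% and 45.5% in shTet3, with 50 to 80 calls each. The pooled difference was −33.8 percentage points (adjusted p = 1.5e-06). At position 87777689 they were 60.2% and 47.2% in shScr against 25.3% and 20.7% in shTet3 (−31.7 points, adjusted p = 1.8e-06). At each of these CpGs the groups did not overlap. The CpG between them, at 87777658, had 48.1% and 72.2% in shScr against 60% and 37.9% in shTet3, which overlapped. The second intron of *Nes* is known for an enhancer active in neural progenitors, but whether these CpGs lie in it was not tested.

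The 3 CpGs of the *Pax6* coding exon were all called lower. At chromosome 2 position 105536501 the oxBS levels were 80.0% and 85.8% in shScr against 45.6% and 63.8% in shTet3, with 79 to 150 calls each (−27.1 points, adjusted p = 7.3e-08). At 105536467 the levels were 80.7% and 82.1% in shScr against 61.8% and 59.3% in shTet3 (−20.8 points). At 105536537 they were 84.7% and 84.2% against 57.0% and 68.1% (−21.7 points). Each of the 3 CpGs had both shTet3 replicates below both controls, and the exon lies 27414 to 27484 bases after the first start of *Pax6*.

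The BS libraries of the same DNA showed both stretches lower as well. The means of the *Pax6* exon were 76.3% and 83.6% in shScr BS and 61.2% and 52.0% in shTet3 BS, and 2 of its 3 CpGs were called lower. In *Nes* intron 2 they were 64.2% and 58.8% in shScr against 50.7% and 47.6% in shTet3, with 1 of 3 CpGs called. Of the 4 CpGs called in every oxBS test, *Nes* 87777689 and *Pax6* 105536467 were not called in BS. In *Nes* intron 1, the oxBS means were 47.0% and 47.8% in shScr against 30.2% and 25.0% in shTet3, and the BS means were 48.0% and 62.0% against 34% and 33.6%. The oxBS and the BS libraries called different CpGs of this intron, 1 and 2 of the 3. The 2 kinds of library share the DNA and the cut fragments and are not independent tests of the knockdown.

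**Figure D2:**
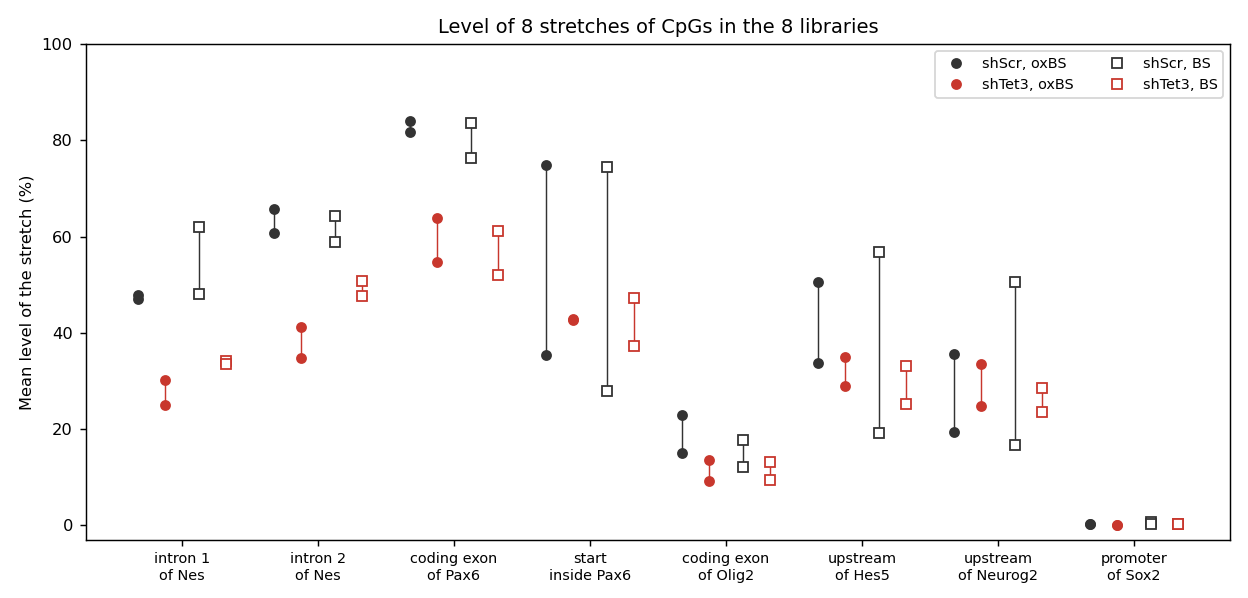
The mean level in percent is plotted for 8 stretches of neighbouring CpGs, with the 2 replicates of each group joined by a line (filled circles oxBS, open squares BS, black shScr, red shTet3). In intron 1 and intron 2 of *Nes* and in the coding exon of *Pax6* the shTet3 points lie below the shScr points in both kinds of library, whereas at the start inside *Pax6* and upstream of *Hes5* and *Neurog2* the 2 shScr replicates span the shTet3 points or most of them.

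Among all *Pax6* calls, the largest pooled difference with the groups apart was at position 105513909, in an untranslated exon 4856 bases after the first start, where shScr had 88.1% and 55.6% and shTet3 had 44.4% and 31.0% (−40.8 points, adjusted p = 3.6e-06). Here the 2 controls differed by more than either shTet3 value did from the lower control, and the BS levels of 72.7%, 30.8%, 56.8% and 54.5% overlapped. The 12 calls of *Pax6* were spread over 7 stretches of the gene and its upstream side. In *Olig2* the largest was at chromosome 16 position 91227407 in the coding exon, with 36.7% and 28.6% in shScr against 8% and 16.7% in shTet3 (−22.8 points, adjusted p = 0.00029). The other 7 calls of *Olig2* were 4 in its coding exon and 3 upstream. In *Nes* the largest was the CpG of intron 2 given above, and 2 of its other calls lay in the first exon at levels under 20%.

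The BS libraries called 22 of 505 CpGs lower in shTet3 (4.36%, all CpGs 13.8%) and none higher (all CpGs 0.0621%), with 59 (11.7%, all CpGs 24.6%) and 1 (0.198%, all CpGs 0.356%) past 10 points at an unadjusted p under 0.05. The F test called none in either direction. The 22 were 9 in *Pax6*, 4 in *Hes5*, 3 in *Nes*, 2 each in *Olig2* and *Neurog2*, and 1 each in *Sox1* and *Fabp7*. Of the 488 CpGs tested in both kinds of library, 4 were called lower in both, which is 16% of the oxBS calls and 18.2% of the BS calls. The 25 oxBS calls had a median BS difference of −8.32 points, and 22 of them were below 0 there. The 22 BS calls had a median oxBS difference of −12.2 points, with 18 below 0. Of the 22 BS calls, 4 were made in all 4 tests that left out a library. They lay at *Pax6* positions 105527375, 105536501 and 105536537 and at *Hes5* chromosome 4 position 154335997. The CpG at 105527375 was not called in oxBS. The *Hes5* CpG lay in the untranslated region, and its BS levels were 66.7% and 51.9% in shScr against 24.8% and 17.9% in shTet3. Its oxBS levels were 48.3% and 50% in shScr against 42.2% and 26.3% in shTet3, a pooled difference of −13.3 points that was not called (adjusted p = 0.041).

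No whole region was called. Of the 19 regions with 3 or more tested CpGs in the oxBS libraries, 7 had both shTet3 replicates below both shScr replicates (all regions 48.5%) and 1 had both above (all regions 3.98%). In the BS libraries 6 of 20 were below (all regions 50%) and 0 above (all regions 3.78%). The 7 were the bodies of *Sox1*, *Pax6*, *Nes* and *Olig2*, the upstream CpGs of *Pax6* and the promoters of *Nes* and *Hes5*. The body of *Pax6* had 60.9% ± 8.03 (SD, n = 2) in shScr against 46.0% ± 0.90 for shTet3, and that of *Olig2* 16.3% ± 2.67 against 11.5% ± 2.13. The body of *Nes* had 13.9% ± 0.020 in shScr and 8.95% ± 0.80 in shTet3. The body of *Hes5* was the region above, with 5.70% and 5.07% in shScr against 6.11% and 6.19% in shTet3, and its BS levels were below instead (6.83% and 8.38% against 4.30% and 3.46%). None of these differences passed a test. With limma on log2 odds, 0 of 19 regions of the 9 genes and 0 of all 26741 regions had an adjusted p under 0.05, and the adjusted p of the 19 ranged from 0.42 to 1. At an unadjusted p under 0.05, limma gave 0 of the 19, and 2724 lower (10.2%) and 165 higher (0.617%) of all regions. In the BS libraries 0 of 20 and 0 of all 26591 were called, and 1 of the 20, the body of *Sox2* (1.98% and 1.94% in shScr, 0.94% and 0.73% in shTet3), had an unadjusted p under 0.05, as did 10.1% of all regions in the lower direction. A two-sided exact permutation test of 2 against 2 libraries cannot give a p below 0.33.

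**Figure D3:**
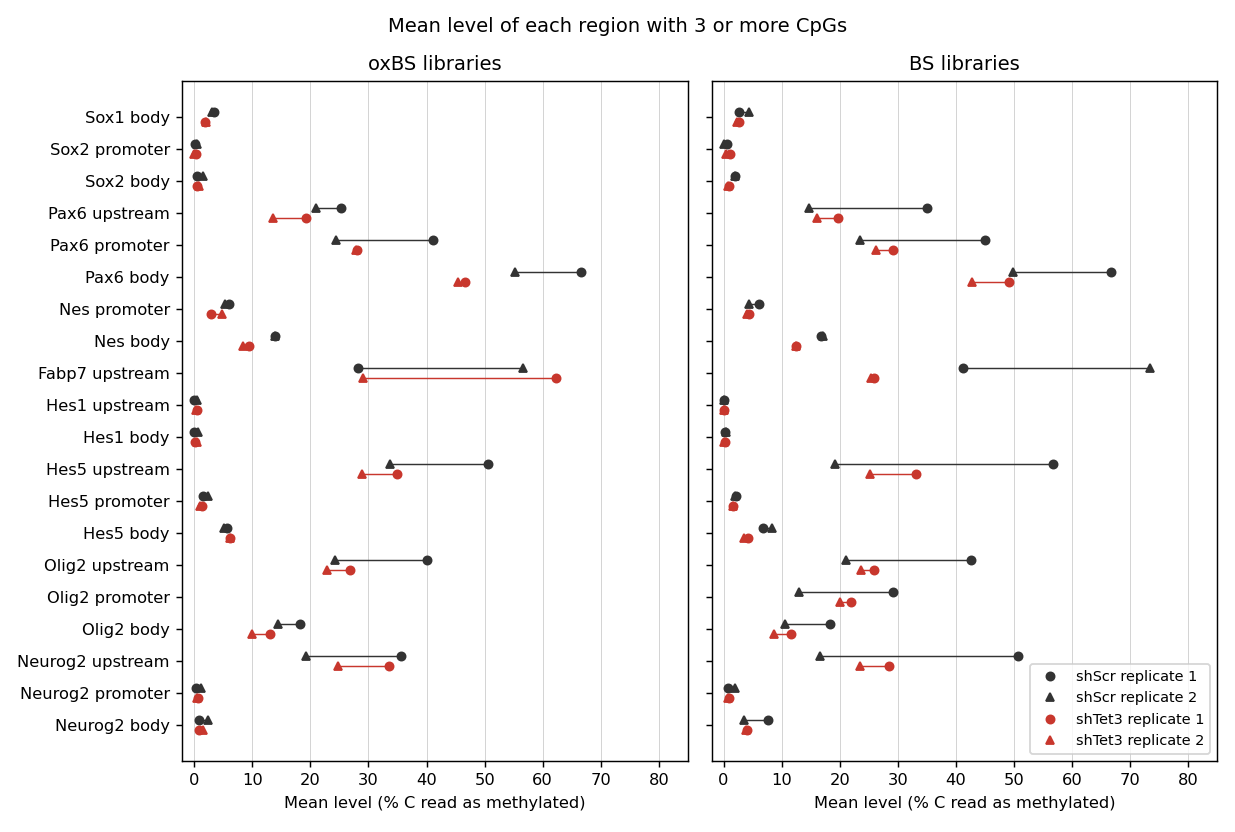
The mean level in percent of each region with 3 or more tested CpGs is plotted for the oxBS (left) and BS libraries (right), with circles for replicate 1, triangles for replicate 2, black for shScr and red for shTet3, and a line joining replicates. The long black lines of *Pax6*, *Hes5* upstream, *Olig2* and *Neurog2* upstream, with circles to the right, show that shScr replicate 1 lay above replicate 2, and only at *Fabp7* upstream is a shScr line of this length reversed.

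The 2 control replicates differed at these genes in the direction opposite to most CpGs of the series. This comparison was added after seeing the data and is a description. Over the 284229 CpGs of the series with a mean level over 10% in the 4 shScr libraries, replicate 2 was higher than replicate 1 in both the oxBS and the BS libraries at 60.6% and replicate 1 was higher in both at 10.9%. The mean oxBS levels were 58.1% and 68.7%. At the 150 such CpGs of the 9 genes, replicate 1 was higher in both at 98 (65.3%) and replicate 2 at 12 (8%), and the mean levels were 41.8% and 31.9% in oxBS and 45% and 27.7% in BS. The pattern was present in each band of level. Replicate 1 was higher in both kinds of library at 57 of 90 CpGs between 10 and 40% (all CpGs 24.8%), 34 of 48 between 40 and 70% (all CpGs 10%) and 7 of 13 above (all CpGs 6.17%). The CpGs of one stretch share reads and are not replicates of each other.

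The genes did not all share it. Replicate 1 was higher in both kinds of library at 44 of 58 CpGs of *Pax6*, 30 of 48 of *Olig2*, 12 of 15 of *Neurog2* and 7 of 9 of *Hes5*. It was higher at 4 of 13 of *Nes*, 1 of 3 of *Sox1* and 0 of 4 of *Fabp7*, where replicate 2 was higher at all 4. In the upstream stretch of *Neurog2* printed above (14 CpGs), shScr replicates 1 and 2 had 35.6% and 19.3% in oxBS and 50.6% and 16.7% in BS, while shTet3 had 33.5% and 24.8% in oxBS and 28.5% and 23.5% in BS. In the stretch at the start inside *Pax6*, 11378 to 11462 bases after the first start, shScr had 74.8% and 35.3% in oxBS and 74.5% and 27.8% in BS, on either side of the shTet3 values of 42.9% and 42.7%. The 6 CpGs upstream of *Hes5* had 50.6% and 33.8% in oxBS and 56.7% and 19.2% in BS. Since the BS and oxBS libraries of a replicate come from the same DNA, the difference was seen again in a second library of each DNA sample. Between the shTet3 replicates, replicate 1 was higher in both at 44.8% of 143 CpGs of the 9 genes (all CpGs 28.0%) and replicate 2 at 15.4% (all CpGs 30.2%).

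**Figure D4:**
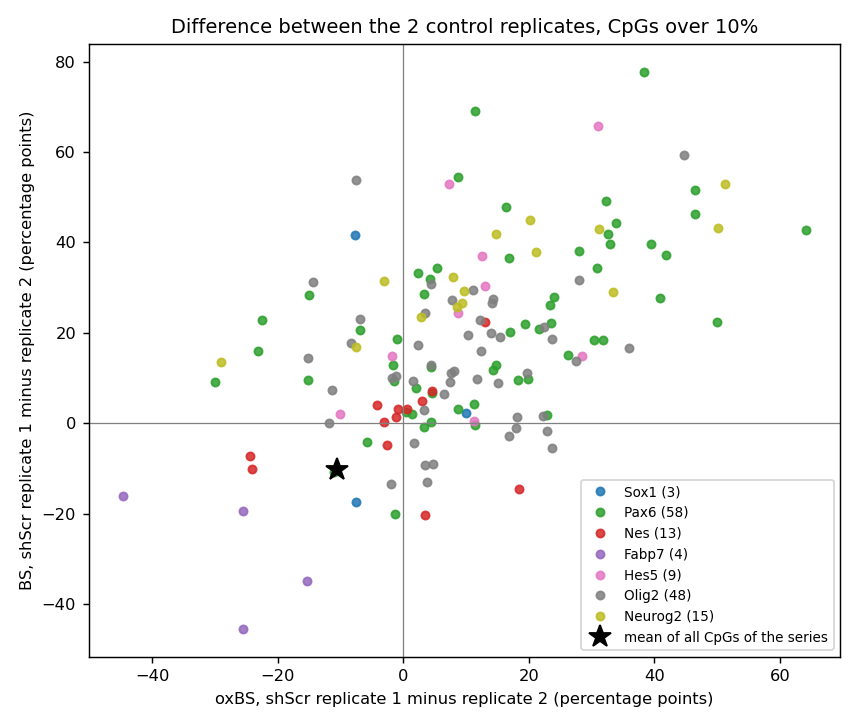
Each point is one of the 150 CpGs of the 9 genes over 10% in shScr, with the difference of shScr replicate 1 minus replicate 2 in percentage points in the oxBS libraries (x axis) and in the BS libraries (y axis), coloured by gene with the number of CpGs in brackets. Most points of *Pax6*, *Olig2*, *Hes5* and *Neurog2* lie above and to the right of 0, and the star, the mean of all 284229 CpGs of the series, lies below and to the left of it.

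*Fabp7* and the upstream side of *Sox1* rest on few CpGs. The 3 upstream CpGs of *Fabp7* had oxBS means of 28.2% and 56.7% (shScr) against 62.2% and 29.1% (shTet3), and the CpG in its coding exon had 54.5% and 80% against 63.2% and 43.8%. In oxBS the groups overlapped at both. In BS the upstream CpGs had 41.2% and 73.4% in the controls against 25.9% and 25.4%, with the groups apart and 1 of the 3 CpGs called lower, so that the mean difference was −31.7 points in BS and 3.25 points in oxBS. The *Sox1* CpG, at chromosome 8 position 12390521, had 31.1% and 38.7% against 24.2% in both shTet3 replicates in oxBS. Its BS levels of 66.7% and 25% against 14.3% and 10% were called lower.

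The number of calls in these genes depended on which control was kept. Without shScr replicate 1, the oxBS libraries gave 6 of 542 CpGs lower (all CpGs 16.7%) and 5 higher (all CpGs 0.121%) in shTet3, of which 4 and 2 were in *Pax6*, 2 and 0 in *Nes*, and 0 and 3 in *Neurog2*. Without shScr replicate 2 they gave 34 of 532 lower (all CpGs 5.79%) and 0 higher (all CpGs 0.435%), 16 of them in *Pax6* and 11 in *Olig2*. Over all CpGs of the series the order was the other way, with 116537 lower without replicate 1 and 39266 without replicate 2. All 8 calls of *Olig2* were lost without shScr replicate 1. Leaving out shTet3 replicate 1 gave 15 of 530 lower (all CpGs 8.72%) and 0 higher (all CpGs 0.0755%), and leaving out shTet3 replicate 2 gave 16 of 530 lower (all CpGs 9.93%) and 0 higher (all CpGs 0.128%). In the BS libraries the 22 lower calls became 9 (all CpGs 17.0%), with 8 higher (all CpGs 0.133%), without shScr replicate 1, and 45 (all CpGs 4.94%), with 0 higher (all CpGs 0.298%), without replicate 2.

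**Figure D5:**
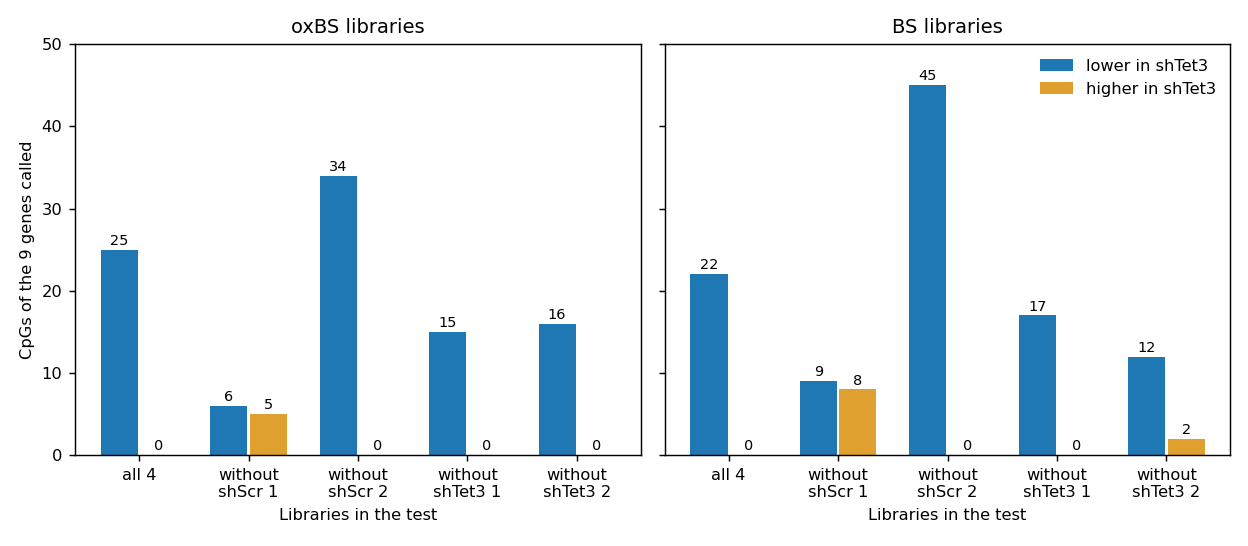
Bars show the number of CpGs of the 9 genes called lower (blue) or higher (orange) in shTet3 with all 4 libraries of a kind and with each library left out, in the oxBS (left) and BS libraries (right). The lower calls ranged from 6 to 34 in oxBS and from 9 to 45 in BS, and higher calls appeared without shScr replicate 1 in both and, with 2 CpGs, without shTet3 replicate 2 in BS.

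Estimated 5hmC, the BS level minus the oxBS level, was not detectable above background at this depth at these genes. BS below oxBS cannot come from 5hmC and gives the background. In shScr, 1 of 512 CpGs was called with BS above oxBS (0.195%, all CpGs 0.33%) and 0 below (all CpGs 0.17%), with 22 (4.30%, all CpGs 4.48%) and 21 (4.10%, all CpGs 3.26%) past 10 points at an unadjusted p under 0.05. A model with a replicate block paired each BS library with its oxBS counterpart. It called 2 of 512 CpGs above (all CpGs 0.308%), both in *Neurog2*, and 0 below (all CpGs 0.161%). The F test called none. In shTet3, 0 of 518 were called above (all CpGs 0.0239%) and 0 below (all CpGs 0.0141%), with 10 (1.93%, all CpGs 3.39%) and 12 (2.32%, all CpGs 2.59%) past 10 points at an unadjusted p under 0.05, and the F test again called none. The CpG called in shScr was the first capital CpG of the *Neurog2* upstream sequence, chromosome 3 position 127331308, with 48.1% and 16.7% in BS and 6.38% and 9.43% in oxBS, and the BS value of replicate 2 rests on 12 calls. In shTet3 this CpG had 22.7% and 14.3% in BS and 17.9% and 16.2% in oxBS. Over the 19 regions with 3 or more CpGs covered in all libraries, BS minus oxBS ranged from −36.4 to 16.7 percentage points in single replicates. Its sign was opposite in the 2 shScr replicates at 12 regions and in the 2 shTet3 replicates at 8. It was above 0 in all 4 replicates for the body of *Nes* (2.28 and 1.87 points in shScr, 3.11 and 4.08 in shTet3) and for the promoter of *Neurog2*, at 0.27 to 0.82 points. The share of all regions above 0 in all 4 was not counted, so these 2 regions are a description.

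Other genes of the same pathways gave counts by the same oxBS test. Among 15 other progenitor factors and markers, 55 of 1070 CpGs were lower (5.14%) and 3 higher, in *Lhx2* and *Zic1*, with a median difference of −0.22 points. The 2 with the largest body differences were *Slc1a3*, an astroglial glutamate transporter, with 87.0% and 89.7% in shScr against 67.3% and 66.1% in shTet3, and *Gli3*, a mediator of Hedgehog signalling, with 57.4% and 62.0% against 48.9% and 37.2%. Among 16 Notch pathway genes, 127 of 1170 CpGs were lower (10.9%) and 1 higher (all CpGs 0.0814%), with a median of 0. The receptor *Notch2* had body levels of 80.0% and 77.9% in shScr against 61.4% and 68.2% in shTet3, and the coactivator *Maml1* had 62.1% and 73.0% against 50.1% and 60.3%. Among 12 proneural and other bHLH genes, 11 of them with CpGs, 31 of 480 CpGs were lower (6.46%) and 0 higher, with a median of 0. *Neurog3* had body levels of 39.4% and 27.6% in shScr against 23.6% and 23.3% in shTet3, and *Olig3* had 29.9% and 32.9% against 24.0% and 22.6%. All of these shares lie under the 13.9% of all CpGs. CpGs under 10% in shScr made up 64.0% of the progenitor list, 70.6% of the Notch list and 74.6% of the bHLH list, against 54.1% of all CpGs. Of the CpGs over 10% in shScr, 14.3%, 36.9% and 25.4% were lower in the same order, against 30.4% of all such CpGs. Averaged over their tested CpGs, shScr replicate 1 lay above replicate 2 in the progenitor factors (16.5% and 13%) and the bHLH genes (10.5% and 9.26%), and below it in the Notch genes (16.7% and 18.8%).

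Averaged over their tested CpGs, genes listed as markers of other cell types were more methylated than the 9 genes, whose mean shScr level was 12%. Not every region followed this. In shScr the promoter of the pluripotency gene *Klf4* had 0.37% and 0.45%, and the body of *Pax6* had 66.6% and 55.2%. The mean was 31.2% over pluripotency genes, 43.2% over neuronal genes, 55.2% over astrocyte and oligodendrocyte genes and 49.5% over fibroblast genes. In the same order, 9 of 10, 5 of 8, 4 of 6 and 4 of 5 genes had tested CpGs. These means weigh every CpG alike, so genes with many CpGs count most. The body of *Rbfox3* held 227 of the 405 neuronal CpGs, and that of *Esrrb* 81 of the 232 pluripotency CpGs. Lower calls made up 12.1%, 21.5%, 21.3% and 21.6% of the tested CpGs of these lists, against 13.9% of all CpGs. Of their CpGs over 10% in shScr, 22.6%, 28.8%, 22.3% and 24.1% were lower, against 30.4% of all such CpGs. The only higher call lay in the promoter of *Twist2*, a fibroblast gene (all CpGs 0.0814%). Levels of 5mC do not tell which cells were present, and the part of other cell types in these values was not tested.

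The genes with the most similar levels to the median of the 5 listed genes measured in promoter and body (*Sox2*, *Pax6*, *Nes*, *Hes5* and *Neurog2*) were *Nkx2-4*, *Tal1* and *Foxl2*. Likeness was the Euclidean distance over 16 values, promoter and body in 8 libraries, among 6434 genes. The distances were 3.16, 4.48 and 4.93 percentage points. *Nkx2-4*, a homeobox gene of the forebrain, had oxBS levels of 1.20% and 2.38% in shScr against 0.94% and 1.07% in shTet3 at its promoter, and 6.38% and 6.33% against 4.18% and 4.89% in its body.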

How the data were processed

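The authors trimmed reads with Trim Galore, aligned them to mm9 with Bismark and called methylation. Versions are not given in the sources used here. Each deposited file lists coverage (a count) for every CpG of a library, next to the percent read as C and as T, neither normalised nor pooled. Every one of the 757812 CpGs was covered by 5 calls or more. Recovered methylated counts were whole within 0.01. Libraries held 42516767 to 61865967 calls (median coverage 43 to 54, at the 9 genes 46 to 78). PCR copies were not marked by molecular identifiers, so tests on counts cover counting error only.

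CpGs with 10 or more calls in each of the 4 libraries compared were tested by a logistic likelihood ratio test (Python 3.11.15, scipy 1.17.1), and regions with limma 3.58.1 (R 4.3.3) on log2 odds after adding 1 percentage point. Scripts were tested on simulated data. Replicate numbers pair BS with oxBS libraries of one DNA, and the correlation of replicate 1 minus replicate 2 over 612975 CpGs was 0.52 (shScr) and 0.26 (shTet3) between them. Between shScr and shTet3, which share only a number, it was −0.041 (oxBS) and −0.034 (BS). Genes were those of GENCODE vM1, *Sox1* was placed by its RefSeq start sequence (GRCm38.p6), and printed sequences were read from mm9. Members and lists were chosen with earlier results of these data known. The CpG named per gene was the call with the largest pooled oxBS difference among those with the groups apart, besides every call higher in shTet3. From each list of progenitor, Notch and bHLH genes the 2 with the largest oxBS body difference were named.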

Additional observations from a re-analysis of the deposited data

Results flagged for a closer look

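BS minus oxBS was compared at 19 regions with 3 or more CpGs covered in all libraries. At 2 of them it had one sign in both shScr replicates and the other in both shTet3 replicates. How often this occurs over all regions of the series was not counted. The difference between the shRNAs was not tested. At the upstream CpGs of *Fabp7* (3 CpGs), it was 13.1 and 16.7 percentage points in shScr against −36.4 and −3.75 in shTet3, so that the mean of shTet3 minus that of shScr was −34.96 points. The coverage of these CpGs was between 15 and 59 calls, and the 2 oxBS libraries of shTet3 had 62.2% and 29.1%. In the body of *Hes5* (25 CpGs), it was 1.31 and 2.67 points in shScr against −1.47 and −2.83 in shTet3, a difference of −4.14 points. A value below 0 cannot be a level of 5hmC.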

How the results depend on the processing

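The counts of CpGs called lower in shTet3 (25 in oxBS, 22 in BS) stayed within 1.5 times under coverage minimums of 5 and 20, the coverage limit, Fisher's exact test, the demand on both replicates and all transcripts, with 21 to 25 in oxBS and 16 to 22 in BS. With the replicate block they were 25 and 20. The F test with overdispersion gave 0 in oxBS, 0 in BS and 0 for BS above oxBS in shScr. It also called none of all CpGs of the series there, so its 0 says nothing of stability at these genes. With one library left out, lower calls ranged from 6 to 34 in oxBS and from 9 to 45 in BS, and higher calls from 0 to 5 and from 0 to 8. For BS above oxBS in shScr (1 CpG), the replicate block gave 2 and a coverage minimum of 20 gave 0, and leaving out a library gave 0 to 16 above and 0 to 14 below. In shTet3, leaving out a library gave 0 to 2 above and 0 to 1 below. Without BS replicate 1 or oxBS replicate 2 of shScr, calls below made up a larger share of these CpGs than of all CpGs. Calls above then made up a smaller share. Without BS replicate 2 or oxBS replicate 1 of shScr, both comparisons were reversed. Each of these tests leaves 1 library on one side, so its counts are a description. Shared numbers between shScr and shTet3 are not a pairing, so the block on those comparisons has no basis in the design. No region of the 9 genes was called under any alternative, which says nothing of stability, since none of the series was called with all libraries. The mean differences of regions changed sign in 34 of 306 values. *Fabp7* and the first starts of *Pax6*, *Sox1* and *Hes1* are limited by how few CpGs are listed there (4, 1, 1 and 0), and the first start of *Olig2* by the oxBS coverage of its 6 CpGs.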
